A study of Homo sapiens with 9 samples.

Results

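Chromosome 19 domains of H3K9me3 that overlapped no zinc finger gene with a ZNF or ZFP symbol were examined in hTERT RPE-1. This is a non-cancer epithelial line from human retinal pigment epithelium, kept dividing by telomerase. They were all domains listed on chromosome 19 in the 8 deposited lists, less every domain that met the body of a GRCh38 protein-coding gene whose symbol begins with ZNF or ZFP. This left 974 of the 1896 chromosome 19 domains, and 974 of the 60138 domains of all chromosomes. Below, outside zinc finger genes means outside genes with ZNF or ZFP symbols. Some of the 974 domains met zinc finger genes with other symbols, such as PEG3. The LmnB1 group overexpressed lamin B1 fused to mCherry, in 4 libraries from the clones LmnB1_16 and LmnB1_6. The mCherry group overexpressed mCherry alone, in 4 libraries from the clones mCherry_3 and mCherry_4. Each clone gave 2 biological replicates, and all 8 cultures had 0.05 ug/mL doxycycline for 24 hours. The series also holds 1 wild-type input sample, which was not analysed on its own here. Each cell line is a single clone, so a construct is represented by 2 clones. The lists carry no expression values, so the labelled cell type could not be checked against its markers.

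H3K9me3 is a histone mark of constitutive heterochromatin, bound by HP1 proteins and found at centromeres, repeats and long silent domains, many of them at the nuclear lamina that lamin B1 helps to build. Chromosome 19 is the most gene-dense human chromosome and carries the large clusters of KRAB zinc finger genes, whose bodies are classical H3K9me3 targets.

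The gene table held 1451 protein-coding genes on chromosome 19, a density of 24.8 per Mb against 14.1 on chromosome 17, the next densest. Of these genes, 255 had ZNF or ZFP symbols and 1196 had others. Values of the 8 libraries are given in the order LmnB1_16 replicates 1 and 2, LmnB1_6 replicates 1 and 2, mCherry_3 replicates 1 and 2, and mCherry_4 replicates 1 and 2. Depth relative to the shared input ranged from 0.880 to 1.01 in the LmnB1 libraries and from 0.421 to 0.859 in the mCherry libraries. These ranges did not overlap, so depth and construct cannot be told apart. Over domains with identical coordinates, the read counts of the mCherry_3 replicates did not differ beyond sampling noise (chi-square test, 1.08 per degree of freedom, p = 0.197, 229 domains). The pairs of the other 3 clones did differ, but LmnB1_16 had nearly the same ratio over more domains (chi-square test, 1.10, p = 0.038, 648 domains). The mCherry_3 lists still differed, with 124 and 135 domains, so both were kept. Results with the average of these 2 libraries are given where they changed. P-values over libraries treat the replicates of a clone as independent.

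Promoter windows from RefSeq (GRCh38.p14, 250 bases before to 50 after the annotated start) were matched to 963 of the 1196 genes outside the ZNF and ZFP symbols. None of these 963 genes had its start inside one of the 974 domains in all 8 libraries. NLRP13 and NWD1, whose bodies met such a domain in all 8, had no matched window, so their starts were not assessed. Counting any domain of a library, also one that reached a ZNF or ZFP gene elsewhere, 9 starts lay in a domain in all 8. The first 3 windows shown belong to such genes inside merged regions, and the last 2 to genes whose bodies, but not starts, met one of the 974 domains in every library. The genes were chosen after these counts were seen. Capitals mark CG dinucleotides, the sites of DNA methylation, and each run is 5′ to 3′ on the gene's strand.
VN1R4, - strand, chr19:53267674-53267973, start in a domain in 8 libraries, 4 CG: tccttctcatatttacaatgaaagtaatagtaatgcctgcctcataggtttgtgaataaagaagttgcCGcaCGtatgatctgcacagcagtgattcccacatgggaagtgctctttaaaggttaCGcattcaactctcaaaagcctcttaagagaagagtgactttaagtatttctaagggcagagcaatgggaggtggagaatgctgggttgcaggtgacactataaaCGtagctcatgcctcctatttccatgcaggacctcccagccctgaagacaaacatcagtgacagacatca
ZSCAN1, + strand, chr19:58033775-58034074, start in a domain in 8 libraries, 42 CG: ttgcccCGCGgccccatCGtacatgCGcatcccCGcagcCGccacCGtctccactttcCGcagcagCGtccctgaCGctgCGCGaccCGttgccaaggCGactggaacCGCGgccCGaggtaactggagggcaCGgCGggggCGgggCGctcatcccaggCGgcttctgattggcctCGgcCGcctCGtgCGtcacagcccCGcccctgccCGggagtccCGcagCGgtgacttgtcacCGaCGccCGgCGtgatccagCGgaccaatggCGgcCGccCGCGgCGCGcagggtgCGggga
USP29, + strand, chr19:57118837-57119136, start in a domain in 8 libraries, 19 CG: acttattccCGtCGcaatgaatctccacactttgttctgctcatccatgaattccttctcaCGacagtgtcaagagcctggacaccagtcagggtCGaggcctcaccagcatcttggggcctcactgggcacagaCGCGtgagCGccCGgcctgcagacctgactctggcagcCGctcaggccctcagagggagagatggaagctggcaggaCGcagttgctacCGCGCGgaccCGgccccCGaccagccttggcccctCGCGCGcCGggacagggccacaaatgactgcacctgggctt
ABCA7, + strand, chr19:1039857-1040156, start in a domain in 0 libraries, 29 CG: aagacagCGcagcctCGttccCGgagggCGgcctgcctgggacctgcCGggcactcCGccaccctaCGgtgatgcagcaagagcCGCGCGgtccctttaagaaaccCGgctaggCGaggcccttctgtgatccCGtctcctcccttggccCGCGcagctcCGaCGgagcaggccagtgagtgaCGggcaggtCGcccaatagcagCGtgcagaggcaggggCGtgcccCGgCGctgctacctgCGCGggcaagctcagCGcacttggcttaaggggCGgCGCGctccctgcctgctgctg
IGFL2, + strand, chr19:46147988-46148287, start in a domain in 0 libraries, 2 CG: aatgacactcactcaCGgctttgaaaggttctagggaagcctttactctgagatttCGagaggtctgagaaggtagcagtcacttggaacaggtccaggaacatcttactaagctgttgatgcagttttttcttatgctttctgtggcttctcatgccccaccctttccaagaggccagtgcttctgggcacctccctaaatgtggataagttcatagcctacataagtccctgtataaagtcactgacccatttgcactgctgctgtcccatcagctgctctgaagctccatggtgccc
The 3 windows inside domains thus ranged from CG-poor (VN1R4) to CG-rich (ZSCAN1), and so did the 2 windows outside. The IGFL2 start of the table lies inside the gene's full extent, so another transcript starts upstream of it. Over all genes matched, the median was 19 CG for the 9 starts in a domain in all 8 libraries and 8 CG for the 41 in 1 to 7 libraries. It was 17.5 CG for the 56 starts outside domains in genes overlapped elsewhere, and 22 CG for the 857 genes not overlapped in any library. Windows with under 10 CG made up 44.4% of the 9, 53.7% of the 41, 33.9% of the 56 and 24.5% of the 857. They made up 44.0% of all 27305 windows of the table, which is not limited to chromosome 19 or to protein-coding genes. These shares are descriptions.

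The length of chromosome 19 covered by domains outside zinc finger genes showed no difference between constructs that passed a test. They numbered 165, 113, 134 and 83 in the LmnB1 libraries and 124, 135, 120 and 100 in the mCherry libraries. They covered 4.30, 5.45, 4.83 and 4.03 Mb in the LmnB1 libraries and 5.99, 4.86, 5.13 and 2.89 Mb in the mCherry libraries. The highest and the lowest value both came from mCherry libraries, and the groups overlapped. The means were 4.65 ± 0.626 Mb (SD, n = 4) with LmnB1 and 4.72 ± 1.31 Mb (SD, n = 4) with mCherry, a difference of -0.0665 Mb (exact two-sided permutation test over 70 assignments, p = 0.943, adjusted over 5 measures 0.943). The number averaged 123.75 ± 34.6 (SD, n = 4) and 119.75 ± 14.6 (SD, n = 4) domains (exact permutation test, p = 0.857, adjusted 0.943). As a share of all bases covered in the genome, these domains made up 0.900 ± 0.208% with LmnB1 and 1.04 ± 0.148% with mCherry (SD, n = 4 each, exact permutation test, p = 0.343, adjusted 0.943). The smallest p this design can give is 0.0286 with libraries as units, and 0.333 with clones as units (6 assignments). The sign of the difference in covered length turned positive when the 2 mCherry_3 replicates were averaged (0.169 Mb). It also depended on the rule for zinc finger genes. The difference was 0.983 Mb with their bodies cut out (exact permutation test, p = 0.657). It was 1.33 Mb with domains dropped only at 50% or more in such genes (exact permutation test, p = 0.6).

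**Figure D1:**
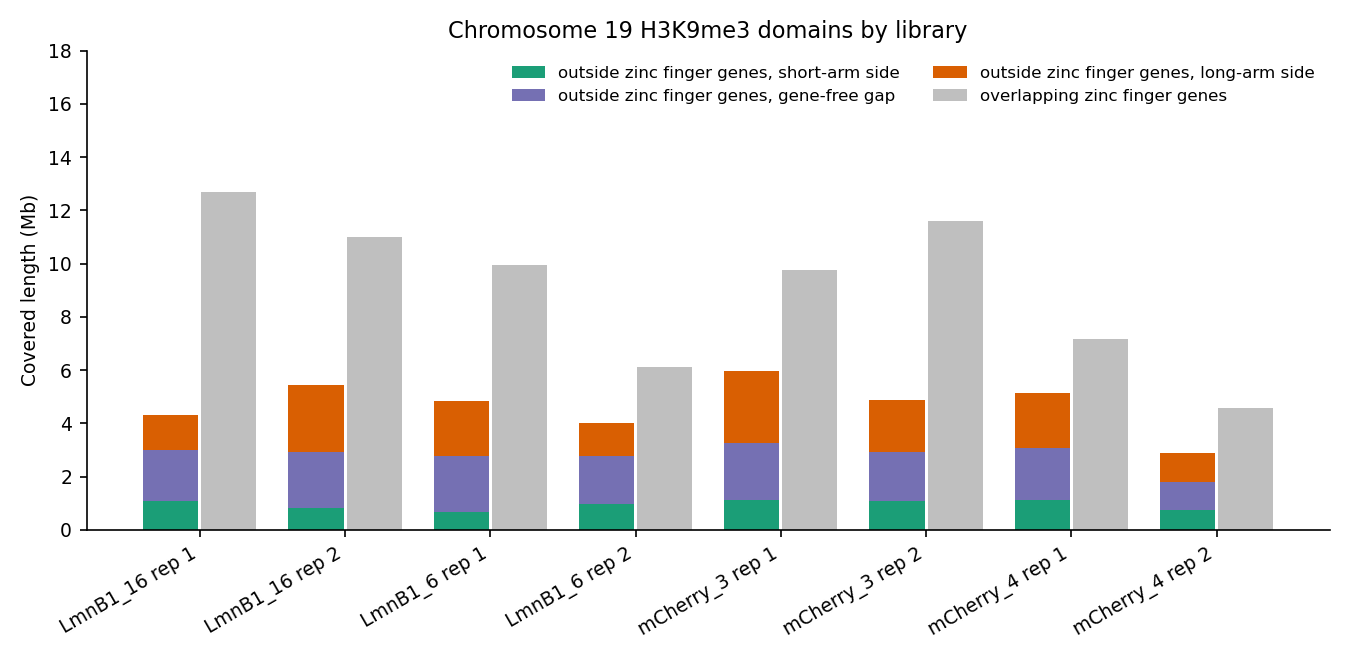
Covered length in Mb (y axis, from 0) of chromosome 19 domains in each of the 8 libraries (x axis). Stacked bars are domains outside zinc finger genes, split into the short-arm side, the gene-free gap and the long-arm side, and grey bars are domains overlapping ZNF or ZFP genes. The stacked bars run from 2.89 to 5.99 Mb with both groups spread over that range, and each is shorter than the grey bar beside it.

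Domains that met a ZNF or ZFP gene were fewer on average but longer, with 922 over the 8 lists covering 4.59 to 12.7 Mb per library. The domains outside them held 25.3, 33.1, 32.7 and 39.8% of the covered bases of chromosome 19 in the LmnB1 libraries and 38, 29.5, 41.8 and 38.6% in the mCherry libraries. They covered 4.94 to 10.2% of the chromosome's extent between its first and last gene (58.5 Mb). The median of the other autosomes, counting all their domains, was 10.5 to 21.8% in the same libraries. With zinc finger domains included, chromosome 19 had a mean coverage of 23.6%.

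Typical domains were short, and the weight of very long ones differed between libraries. The median length was 8, 10, 9 and 30 kb in the LmnB1 libraries and 12, 14, 27 and 17 kb in the mCherry libraries. LmnB1_6 replicate 2 thus stood apart from the other LmnB1 libraries, and mCherry_4 replicate 1 was close to it. The group means were 14.25 ± 10.5 kb and 17.5 ± 6.66 kb (SD, n = 4 each, exact permutation test, p = 0.543, adjusted 0.943). The longest domain measured 518, 1453, 877 and 394 kb in the LmnB1 libraries and 856, 490, 277 and 237 kb in the mCherry libraries. Each library had between 3 and 13 domains of 100 kb or more, 82 in all. These held 57.5, 76.8, 68.0 and 48.3% of the covered bases in the LmnB1 libraries and 69.6, 54.1, 29.5 and 17.8% in the mCherry libraries, so less than 50% in 3 of the 8. The 348 domains under 10 kb (10 to 94 per library) held only 1.71 to 11.9% of the bases. A coding gene was met by 173 of the 348 short domains, by 203 of the 544 domains of 10 to under 100 kb and by 18 of the 82 long ones. The authors' median log2 enrichment over input lay between 0.91 and 1.44 for the short class and between 0.61 and 1.09 for the long class, depending on the library.

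Counting only domains of at least 10 kb, the LmnB1 libraries had 71, 61, 66 and 73 domains and the mCherry libraries 74, 94, 107 and 80. Every mCherry library was above every LmnB1 library, by 1 domain at the closest, and the difference in means was -21 (exact permutation test, p = 0.0286, not adjusted, the smallest p possible for n = 4 against 4). The difference over all lengths was 4 in the other direction. This setting was picked from the alternatives run for domain number. The next smallest p among them was 0.343 (exact permutation test, without LmnB1_6 replicate 2). Whether domains of at least 10 kb differed likewise on other chromosomes was not tested. Depth relative to input differed between the same groups, and its part in this difference was not tested.

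**Figure D2:**
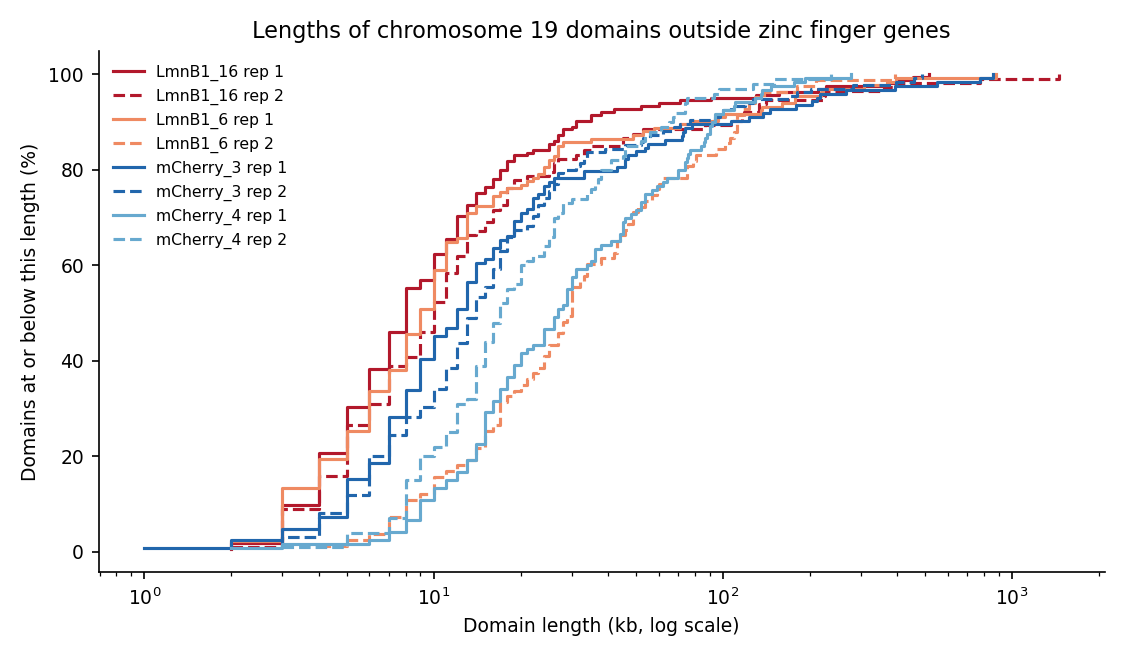
Cumulative share of domains (y axis, %) at or below each length (x axis, kb, log scale), 1 line per library. LmnB1_6 replicate 2 and mCherry_4 replicate 1 lie to the right of the other lines up to about 100 kb, matching their medians of 30 and 27 kb.

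Within a library, domains outside zinc finger genes were a little less enriched than domains on them. The median log2 enrichment was 1.20, 1.00, 0.96 and 0.72 in the LmnB1 libraries and 0.93, 0.94, 0.85 and 0.73 in the mCherry libraries. For zinc finger domains it was 1.31, 1.05, 1.02 and 0.78, and 0.92, 0.93, 0.92 and 0.77. The domains outside were lower in 6 of 8 libraries, both exceptions being mCherry_3 replicates, and the mean difference was -0.045 ± 0.041 (SD, n = 8, exact sign-flip permutation test, p = 0.0312). The call was lost when clones were the units (exact sign-flip permutation test, p = 0.25, n = 4) and without any 1 of 6 libraries (exact p = 0.0625). The difference was -0.10 when domains were weighted by length and -0.12 over domains of at least 10 kb, lower in 8 of 8 libraries under each (exact sign-flip permutation test, p = 0.00781). The median length was also lower in 8 of 8 libraries, by 2 to 45 kb, but a long domain meets a gene more often, so this is tied to how the domains were chosen and carries no test.

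The pericentromeric gene-free gap, 5.08 Mb between the nearest coding genes (chr19:24129969-29205319) and holding the centromere, carried much of the length covered by these domains. The rule of this set removed zinc finger domains of 4.59 to 12.7 Mb per library, which lay mostly outside the gap. Covered shares of the gap and of the arms are therefore not alike in kind and were not compared. Domains outside zinc finger genes covered 37.4, 42.1, 41.0 and 35.4% of the gap in the LmnB1 libraries and 42.5, 36.8, 37.9 and 20.7% in the mCherry libraries. Replicate 2 of mCherry_4 was the lowest and the other 7 lay within 35.4 to 42.5%. The means were 39.0 ± 3.13% with LmnB1 and 34.5 ± 9.53% with mCherry (SD, n = 4 each, exact permutation test added after seeing the data, p = 0.571, adjusted over 6 such tests 0.891). Of the bases covered by these domains, the gap held 44.1, 39.2, 43.1 and 44.6% in the LmnB1 libraries and 36.1, 38.4, 37.5 and 36.3% in the mCherry libraries. Every LmnB1 library was above every mCherry library (means 42.8 ± 2.43% and 37.1 ± 1.08%, SD, n = 4 each), but the difference did not pass the adjusted test (exact permutation test, p = 0.0286, the smallest possible, adjusted over the 6 added tests 0.171). Depth relative to input separated the same groups, and its part was not tested. Counting any domain inside the merged regions described further on, the gap's share was 25.2, 26.6, 27.6 and 37.5%, and 25.4, 24.6, 32.6 and 34.0%, and the groups overlapped. Inside the gap, the 1 Mb windows from 25000001 to 27000000 held no domain in any library, and the window from 28000001 to 29000000 had the highest mean over the 8 libraries (85.7%), with 99.2, 97.5, 97.8, 78.3, 98.8, 98.1, 88.7 and 27.1%. The sources used here do not say whether reads from the centromere's satellite arrays could be placed, so an empty window does not show absence of the mark.

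On the short-arm side of the gap, domains outside zinc finger genes covered 1.09, 0.803, 0.674 and 0.98 Mb in the LmnB1 libraries and 1.12, 1.07, 1.14 and 0.754 Mb in the mCherry libraries (exact permutation test, p = 0.314, adjusted over the 6 added tests 0.891, n = 4 each). On the long-arm side the values were 1.31, 2.51, 2.07 and 1.25 Mb, and 2.71, 1.92, 2.07 and 1.09 Mb (exact permutation test, p = 0.743, adjusted 0.891, n = 4 each). Both sides overlapped between the groups. Gene-rich stretches carried little of this coverage. Of 59 windows of 1 Mb, 18 held at least 30 genes outside the ZNF and ZFP symbols, and their median coverage over the 8 libraries was 1.71%. The 16 windows with under 10 such genes had a median of 8.83% and reached 85.7%. The most gene-rich window, from 1 to 1000000, held 74 genes and averaged 3.48%. Across windows, Spearman's rho between gene number and mean coverage was -0.35, ranging from -0.49 to 0.18 in single libraries, and -0.14 over the 25 windows without a ZNF or ZFP gene. The windows share libraries and gaps in the assembly, so these are descriptions without a test.

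**Figure D3:**
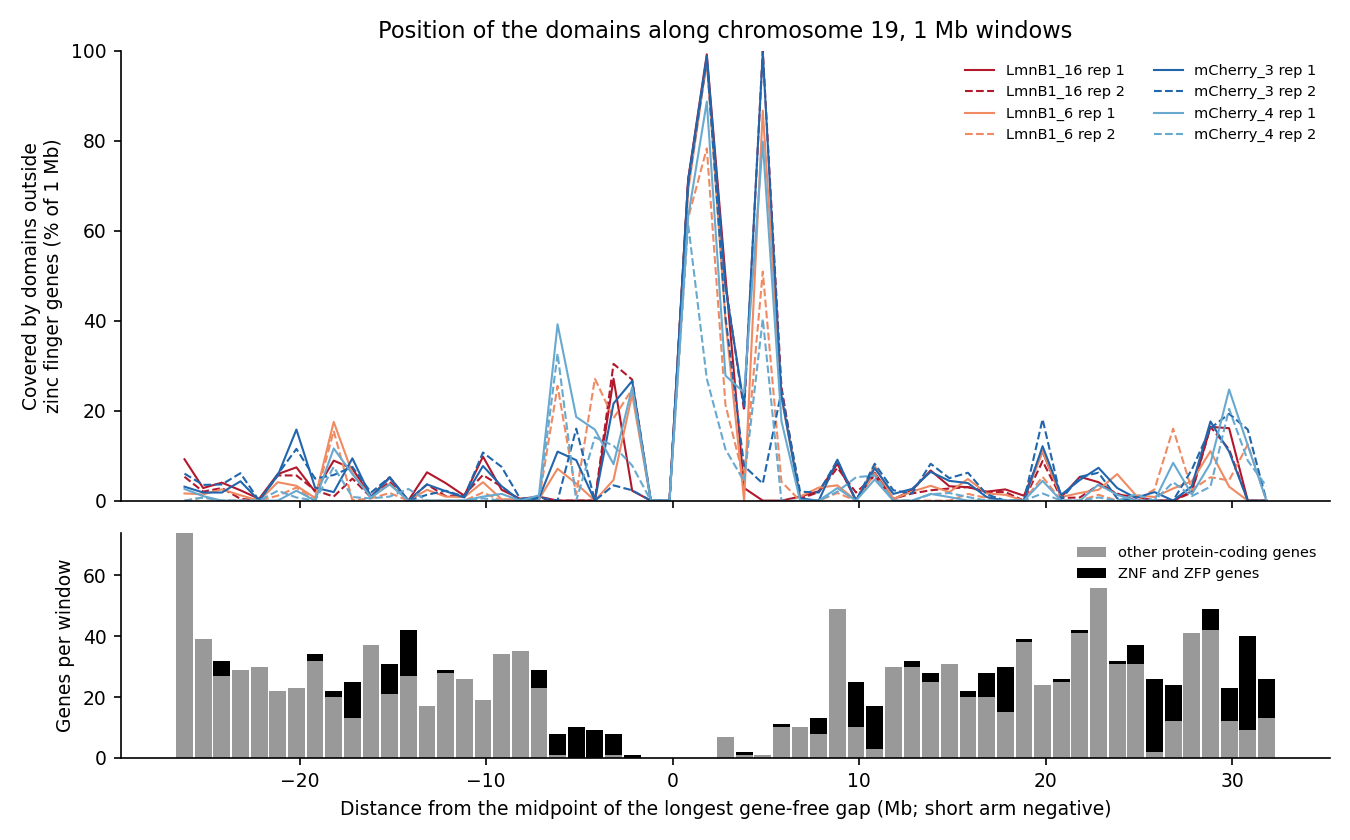
Top, percent of each 1 Mb window covered by domains outside zinc finger genes (y axis) against distance from the midpoint of the gene-free gap (x axis, Mb), 1 line per library. Bottom, genes per window, ZNF and ZFP genes in black and others in grey. The highest peaks stand in the gap and beyond it on the long-arm side, where few genes lie. They reach 99.2% in the window from 28000001 and 100% in the window from 31000001. Windows with at least 30 genes have a mean coverage of at most 11.8%.

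Merging overlapping or touching domains of the 8 lists gave 240 regions spanning 10.1 Mb, with a median of 15 kb. Of these, 17 regions of 100 kb or more held 5.87 Mb (58.0% of the span), and 123 regions held no coding gene. For these regions any domain of a library was counted, since a domain that grew into a ZNF or ZFP gene would otherwise be read as absent. So counted, the regions were covered to 85.9, 80.4, 74.4 and 47.4% in the LmnB1 libraries and 83.9, 86.5, 58.4 and 30.5% in the mCherry libraries. The second replicates of LmnB1_6 and mCherry_4 were the lowest of their groups. The means of 72.0 ± 17.1% and 64.8 ± 26.1% did not pass the test (SD, n = 4 each, exact permutation test, p = 0.686, adjusted over the 6 added tests 0.891). A domain was present in all 8 libraries in 43 regions (6.39 Mb) and in 1 library alone in 44 regions (0.354 Mb, median 6 kb). Of those 44 single-library regions, 20 came from LmnB1_16 replicate 1 and 10 from mCherry_3 replicate 2. Where a library lists no domain, enrichment just under the authors' threshold is still possible.

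The longest region, chr19:30771001-32253000 on the long-arm side (1482 kb), held TSHZ3, a teashirt zinc finger homeobox transcription factor, as its only coding gene. It was covered to 99, 100, 97 and 37% in the LmnB1 libraries and 98, 99, 78 and 28% in the mCherry libraries. The low values were again the second replicates of LmnB1_6 and mCherry_4. The 201 kb body of TSHZ3 itself was covered to 100, 100, 93.1 and 4.4%, and 98.6, 100, 61.3 and 34.4%. The next longest, chr19:27812001-29194000 (1382 kb), lay in the gap without a coding gene and was covered to 78% or more in all libraries but mCherry_4 replicate 2, at 35%. Beside it, chr19:27241001-27641000 (400 kb) had 100, 99, 99 and 98% in the LmnB1 libraries and 98, 99, 90 and 97% in the mCherry libraries. Its neighbour chr19:27642001-27780000 (138 kb) had 68 to 100%. On the other flank of the centromere, chr19:24155001-24421000 (266 kb) had 88 to 100% in the LmnB1 libraries and 100, 100, 91 and 28% in the mCherry libraries. Just past the gap, chr19:29231001-29459000 (228 kb, no coding gene) had 100, 98, 79 and 27%, and 96, 88, 51 and 12%, lowest in LmnB1_6 replicate 2 and in mCherry_4 replicate 2. A short-arm region without a coding gene, chr19:23410001-23634000 (224 kb), had 96, 88, 94 and 44%, and 96, 100, 11 and 0%.

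**Figure D4:**
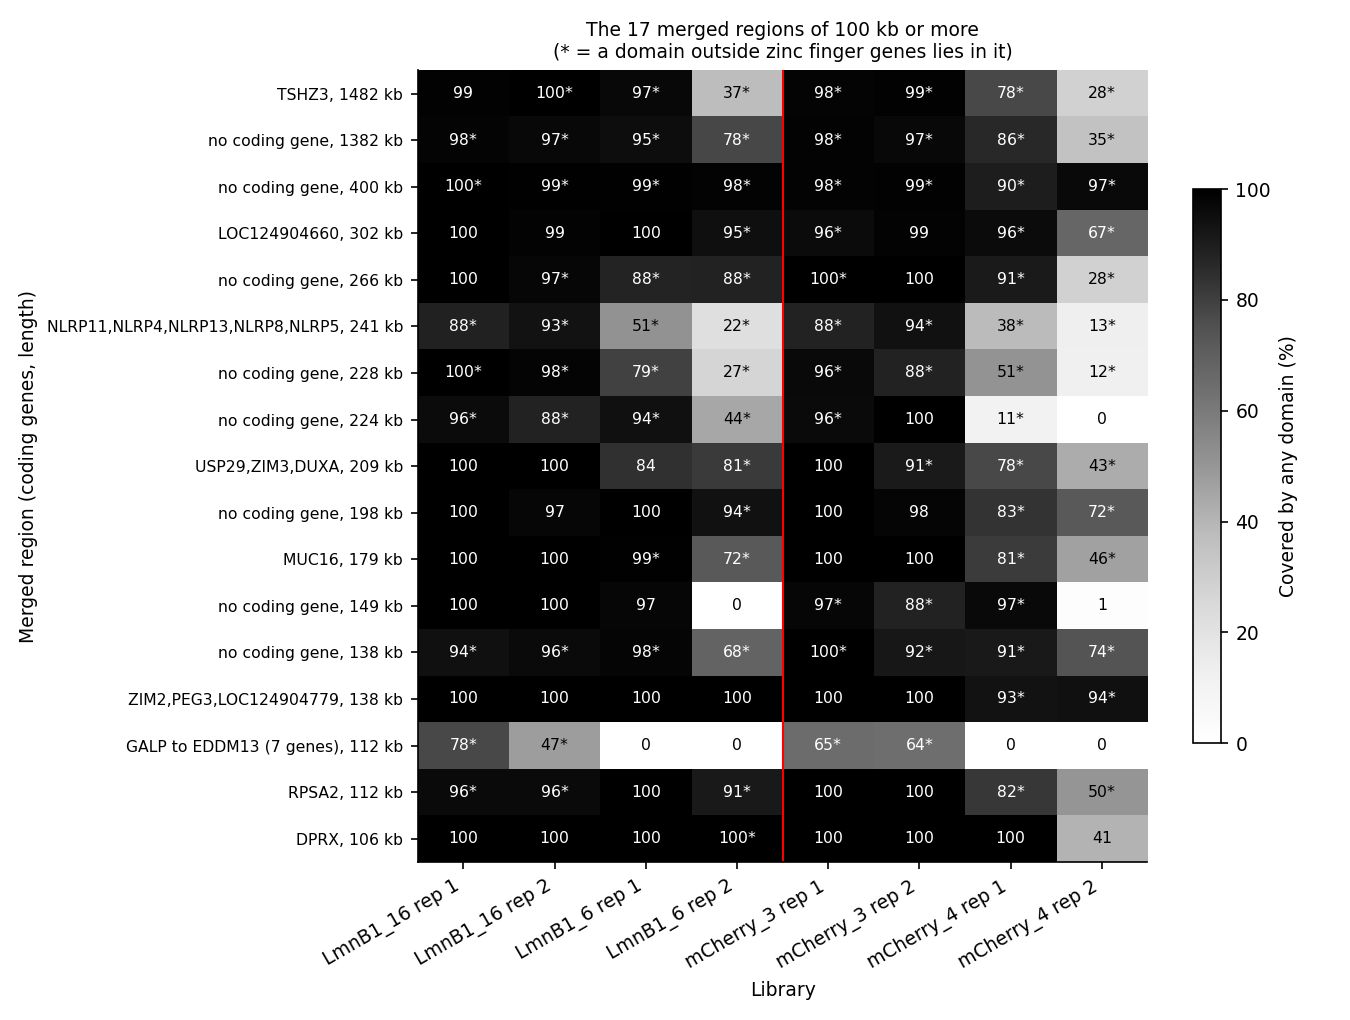
Percent of each of the 17 merged regions of 100 kb or more (rows, named by coding genes and length) covered by any domain in each library (columns), from white at 0 to black at 100%. The red line separates LmnB1 from mCherry libraries, and a star marks a domain outside zinc finger genes. Light cells gather in LmnB1_6 replicate 2 and in the mCherry_4 libraries, not on one side of the red line.

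Coverage of at least 50% in all 8 libraries was found in 25 regions (1.88 Mb), and 18 of them held no coding gene. Many lay beside zinc finger genes: 17 of the 25 lay within 10 kb of a ZNF or ZFP gene, against 45 of all 240 regions, and in 13 of the 25 a domain free of such genes was listed in 1 library alone. In 4 of the 25 such a domain was listed in all 8 libraries. They were the gap regions of 400 and 138 kb, chr19:37781001-37837000 (56 kb, no coding gene) and chr19:1051001-1065000 (14 kb), over ABCA7. Among the longest were also chr19:20226001-20528000 (302 kb, 67 to 100%), with the predicted gene LOC124904660, and chr19:22436001-22634000 (198 kb, 72 to 100%), without a coding gene. The others were chr19:56755001-56893000 (138 kb, 93 to 100%) over ZIM2 and PEG3, chr19:23765001-23877000 (112 kb, 50 to 100%) over RPSA2, and chr19:53256001-53331000 (75 kb, 55 to 100%) over VN1R2 and VN1R4. Over the whole genome, with every domain merged, 291 of 12013 regions (2.42%) were covered to this degree. That set is built from all domains, so the 2 shares are not alike in kind and were not compared.

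A domain free of ZNF and ZFP genes was listed in all 8 libraries in 14 regions, 12 of them more than 100 kb from such a gene. They included the 3 gap regions of 1382, 400 and 138 kb, the 228 kb region beside the gap and the NLRP cluster. Among gene-bearing ones were a 14 kb region over ABCA7, a 13 kb region over NWD1 and a 68 kb region over IGFL2 and IGFL3. Such domains met only 4 genes outside ZNF and ZFP symbols in all 8 libraries: NLRP13, ABCA7, IGFL2 and NWD1. IGFL3 was met in the 2 mCherry_3 libraries alone.

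NLRP13 belongs to the NLRP family of cytosolic NACHT proteins, several of which serve in inflammasomes or in the oocyte. Its body (chr19:55891692-55932336) was covered to 100, 100, 61.5 and 68.0% in the LmnB1 libraries and 100, 100, 50 and 0.76% in the mCherry libraries. Coverage was complete in both clones LmnB1_16 and mCherry_3 and partial in the others. The means were 82.4 ± 20.5% and 62.7 ± 47.5% (SD, n = 4 each, limma with the clone as a block, Benjamini-Hochberg adjusted p = 0.92).

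ABCA7 encodes an ATP-binding cassette lipid transporter. Its body (chr19:1040107-1065572) was covered to 47.1, 35.3, 35.3 and 27.5% in the LmnB1 libraries and 31.4, 55.0, 39.3 and 27.5% in the mCherry libraries. The domain lay over the downstream portion of the gene, from 1051001 to 1065000, and the start, whose window is printed here, was outside it in each library. The means were 36.3 ± 8.10% and 38.3 ± 12.2% (SD, n = 4 each, limma adjusted p = 1.00). The nearest ZNF or ZFP gene was 1755 kb away. Inside single lists the ABCA7 domain was the second most enriched outside zinc finger genes in LmnB1_6 replicate 2 (log2 1.59, 149 H3K9me3 reads against 55 input reads), mCherry_4 replicate 1 (1.52, 100 against 83 reads) and mCherry_4 replicate 2 (1.28, 121 against 58 reads).

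IGFL2, of the insulin growth factor-like family, was covered to 28.5, 24.1, 42.4 and 24.8% in the LmnB1 libraries and 43.1, 68.7, 6.58 and 5.85% in the mCherry libraries. The mCherry_3 values were the highest and the mCherry_4 values the lowest of all 8. The means were 30 ± 8.50% and 31.1 ± 30.5% (SD, n = 4 each, limma adjusted p = 1.00). NWD1, a gene for a NACHT and WD repeat protein, had 33.6, 17.3, 11.2 and 6.08%, and 23.4, 34.6, 9.14 and 5.10%. Here too clones differed within each construct, and the means of 17.0 ± 11.9% and 18.1 ± 13.5% were close (SD, n = 4 each, limma adjusted p = 1.00).

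Most genes of the chromosome outside the ZNF and ZFP symbols met no domain at all. Domains outside zinc finger genes touched 78, 56, 47 and 16 genes in the LmnB1 libraries and 63, 73, 31 and 18 in the mCherry libraries (means 49.25 ± 25.7 and 46.25 ± 26.0, SD, n = 4 each, exact permutation test, p = 0.943, adjusted 0.943). LmnB1_6 replicate 2 and both mCherry_4 libraries touched the fewest genes, and the groups overlapped. At least 50% of the body was covered in 21, 16, 9 and 6, and 23, 32, 15 and 7 genes. Domains without any coding gene made up 51.5, 54.0, 59.7 and 78.3%, and 49.2, 45.9, 71.7 and 80% of these domains. The share was 63.0 to 68.1% of domains on the other autosomes, where domains on zinc finger genes were kept. With such domains kept on chromosome 19 too, 580 of its 1896 domains over the 8 lists met no coding gene. Counting any domain, 1059 of the 1196 genes (88.5%) were at 0 in all 8 libraries, against 79.6% of genes on other chromosomes and 15.3% of the ZNF and ZFP genes of chromosome 19. Coverage of at least 50% in all 8 libraries was found for 12 of the 1196 genes (1.00%), against 364 of 20037 coding genes (1.82%). The genes of other chromosomes and the 20037 coding genes include ZNF and ZFP genes, so these shares are not alike in kind.

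Where a gene was met, the domain took in its end somewhat more often than its start. In genes with a known start, the start lay inside in 20.6, 26.7, 12.8 and 41.7%, and 34.0, 35.6, 43.5 and 38.5% of the genes touched. The end lay inside in 30.2, 35.6, 25.6 and 50%, and 41.5, 47.5, 39.1 and 46.2%. The end was the more frequent in 7 of 8 libraries, mCherry_4 replicate 1 being the exception. A library had 12 to 63 such genes, and neighbouring genes share domains, so no test was made.

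Gene lists differed widely in coverage, and several were at 0. The values of the lists count any domain of a library, and the share from domains that met no ZNF or ZFP gene is given beside them where it differed. Over all 1196 genes the mean was 3.23%, of which such domains gave 1.69%. The 3 vomeronasal receptor genes, relics of a pheromone receptor family, averaged 83.2% over the 8 libraries, but 8.33% by domains outside zinc finger genes. VN1R2 and VN1R4 were at 100% in all 8, and VN1R1 at 100, 100, 100 and 0%, and 6.0, 0, 91.0 and 0%. A domain outside zinc finger genes met VN1R2 and VN1R4 in 1 library each and VN1R1 in 0. The PEG3 list held the imprinted gene PEG3, its neighbours ZIM2, ZIM3, USP29 and DUXA, and ZSCAN1, ZSCAN4, ZSCAN5A, ZSCAN5B and ZSCAN5C, which lie farther away. All 10 listed genes met a domain in at least 1 library, and 3 (PEG3, ZIM2 and ZSCAN1) were covered to at least 50% in all 8. The mean of the 10 was 54.9%, and 17.4% by domains outside zinc finger genes. PEG3, a paternally expressed zinc finger gene, and its neighbour ZIM2 were at 100% in 7 of 8 libraries, with 74.8 and 88.3% in mCherry_4 replicate 2. USP29, of the ubiquitin-specific protease family, had 100, 100, 61.6 and 92.8%, and 100, 100, 30.5 and 22.7%. Its neighbours ZIM3, a zinc finger gene, and DUXA, a double homeobox gene, were at 0 in the same 3 libraries: both LmnB1_6 libraries and mCherry_4 replicate 2. DUXA was also at 0 in mCherry_3 replicate 2. Domains free of ZNF and ZFP genes met USP29 in 4 libraries, PEG3, ZIM2 and ZIM3 in 2 and DUXA in 1.

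Zinc finger genes with other symbols ranged from full coverage by any domain to none, and most of the domains over the covered ones also reached a ZNF or ZFP gene. Of 18 such genes, 4 were covered to at least 50% in all 8 libraries (ZSCAN18, ZIM2, ZSCAN1 and PEG3) and 8 were at 0 in all 8, with a mean of 32.1%, and 8.02% by domains outside ZNF and ZFP genes. Such a domain met ZSCAN18 in 0 libraries and ZSCAN1 and ZIK1 in 1. ZSCAN18 and ZSCAN1 encode SCAN-domain zinc finger proteins. ZSCAN1 was complete in 7 libraries and at 84.4% in mCherry_4 replicate 2. ZIK1, a KRAB zinc finger gene, had 100, 100, 80.6 and 8.8%, and 0, 59.0, 0 and 0% (72.3 ± 43.4% and 14.7 ± 29.5%, SD, n = 4 each, limma adjusted p = 0.907). Among the 6 homeobox genes of the early embryo, DPRX was at 83.6% in LmnB1_6 replicate 2 and at 100% in the other 7 libraries, DUXA averaged 38.4% and LEUTX 2.91%. The list averaged 23.2%, and 3.15% by domains outside zinc finger genes, which met DPRX in 1 library.

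NLRP genes averaged 30.4%, all of it from domains outside zinc finger genes, with 3 of 9 at 0 in all libraries and none at 50% or more in all 8. The cluster region (chr19:55824001-56065000, 241 kb) was covered to 88, 93, 51 and 22% in the LmnB1 libraries and 88, 94, 38 and 13% in the mCherry libraries. NLRP8, the highest member at a mean of 76.6%, had 100, 100, 86.2 and 0%, and 100, 100, 100 and 27.0%. NLRP4 had 100, 100, 59.6 and 19.5%, and 100, 100, 0 and 21.7%. In this cluster the LmnB1_16 and mCherry_3 libraries were the most covered, 1 clone of each construct. Among the olfactory receptor genes, odorant sensors of the nasal epithelium, 12 of 20 were at 0 in all libraries, and OR7G2 and OR1M1 were each at 100% in LmnB1_16, mCherry_3 and mCherry_4 replicate 1 and at 0 in the other 3 libraries. The olfactory list averaged 16.8%, and 9.81% by domains outside zinc finger genes, which met both of these genes in 4 libraries. FPR3, a formyl peptide receptor gene of myeloid cells, had 45.7, 58.6, 0 and 0%, and 42.5, 45.7, 0 and 0%, in each case from a domain that reached a ZNF or ZFP gene. MUC16, a membrane mucin of epithelia, stood beside the olfactory genes (179 kb region, chr19:8872001-9051000) and had 100, 100, 89.1 and 67.8%, and 100, 98.2, 66.8 and 38.3%, with a domain outside zinc finger genes in 5 libraries.

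**Figure D5:**
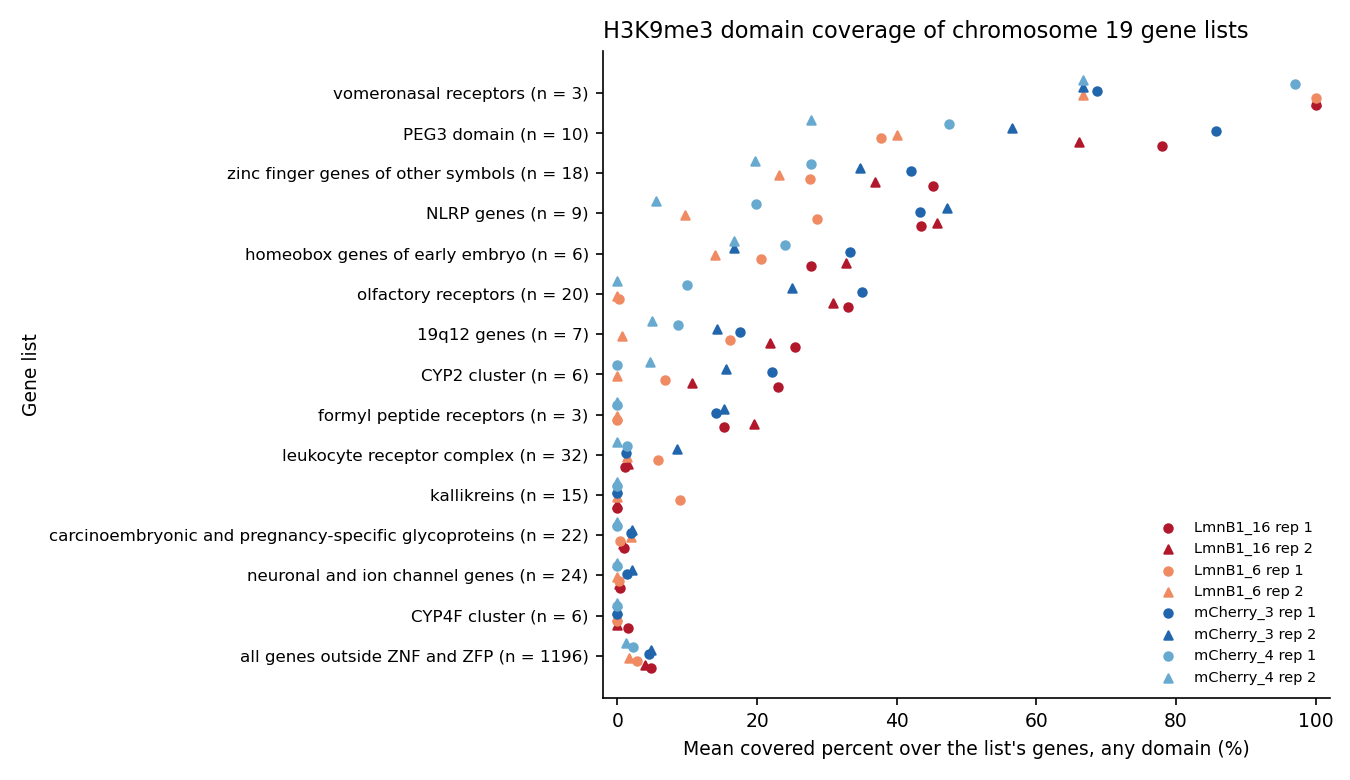
Mean covered percent (x axis, any domain) over the genes of each chromosome 19 list (y axis, n is the number of genes), 1 point per library, with circles for replicate 1 and triangles for replicate 2. Vomeronasal genes and the list labelled PEG3 domain lie highest, the 1196 genes as a whole under 5%. Points of LmnB1_16 (dark red) and mCherry_3 (dark blue) often lie together.

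Most other clusters carried little, but the CYP2 cluster (mean 10.4%) and the listed 19q12 genes (13.7%) lay above the 3.23% of all 1196 genes. In the CYP2 cluster of drug-metabolising cytochromes, 3 of 6 genes were at 0 in all libraries. CYP2A13 had the highest mean, with 41.3, 41.3, 41.3 and 0%, and 41.3, 2.5, 0 and 28.3%. CYP2B6 had 54.3 and 91.2% in the mCherry_3 libraries and 0% elsewhere (limma adjusted p = 0.911). CYP2A7 reached 96.6% in LmnB1_16 replicate 1. In the leukocyte receptor complex, 28 of 32 genes were at 0, and KIR3DL3, a killer cell receptor gene, reached 100% in LmnB1_6 replicate 1 and mCherry_3 replicate 2 and was at 0 in the second replicates of LmnB1_6 and mCherry_4. Of the 15 kallikreins, secreted serine proteases, 13 were at 0 in all libraries, and KLK8 and KLK9 met a domain in 1 library. Of the 22 carcinoembryonic and pregnancy-specific glycoprotein genes, 17 were at 0, and the highest, CEACAM21, averaged 10.3%. Of 24 neuronal and ion channel genes, 21 were at 0, with UNC13A, a synaptic vesicle priming gene, at a mean of 6.03% and the calcium channel genes RYR1 and CACNA1A at 3.98 and 3.25%. Of the 7 listed genes of 19q12, 5 were at 0, with TSHZ3 at a mean of 74.0% (49.0% by domains outside zinc finger genes) and VSTM2B at 21.8%. In the CYP4F cluster CYP4F22 was met in 1 library and the other 5 genes in none. All 14 Siglec, 12 ribosomal protein, 7 gonadotropin, 6 galectin, 4 apolipoprotein and 3 interferon lambda genes were at 0 in all 8 libraries. The sources used here do not say how reads shared by near-identical copies (KIR, CYP2, PSG or OR genes) were placed, so values of single members of such families are uncertain.

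No gene or bin outside zinc finger genes on chromosome 19 was called between LmnB1 and mCherry. The 97 genes with a mean coverage of at least 5% were tested in a genome-wide limma fit (clone as random effect), and 0 passed a Benjamini-Hochberg adjusted p of 0.05, with 0 at an unadjusted p under 0.05 and a smallest adjusted p of 0.907. Over the genome, 0.304% of 2304 genes were called and 3.65% had an unadjusted p under 0.05. Of the 114 bins of 100 kb tested, 0 were called and 0 had an unadjusted p under 0.05 (limma, smallest adjusted p = 0.993), against 0.61% of 9832 bins called in the genome and 3.26% unadjusted. Groups that did not overlap were found in 0 of the 97 genes and 0 of the 114 bins. The background for LmnB1 above mCherry was 2.69% of genes and 3.59% of bins, and for mCherry above LmnB1 0.391% and 0.407%.

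Of the 240 merged regions, 1 was covered to at least 50% in all 4 LmnB1 libraries and to at most 10% in all 4 mCherry libraries, and 0 showed the opposite. The background over all merged regions of the genome was 0.208% and 0%. The same region was the only one whose groups did not overlap, against 1.51% (LmnB1 higher) and 0.15% (mCherry higher) of the genome's regions. It spanned 17 kb (chr19:11747001-11764000) between ZNF823, 8.06 kb away, and ZNF441, 3 kb away, and was covered to 100% in all 4 LmnB1 libraries and to 0% in all 4 mCherry libraries. A domain confined to this interval was listed in LmnB1_6 replicate 2 alone (log2 0.61, 215 H3K9me3 reads against 156 input reads). In LmnB1_16 replicates 1 and 2 and LmnB1_6 replicate 1 it was part of domains of 46, 52 and 48 kb that ran over ZNF441 (log2 1.56, 1.20 and 1.19). Its single domain free of zinc finger genes thus lay just above the authors' threshold of 0.6, and the longer domains belong to a zinc finger gene.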

How the data were processed

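H3K9me3 Cut&Run libraries were made with the antibody ab8898, per the labels' protocols. DESeq2, DiffBind 3.0.15, SICER, deepTools and the build GRCh38/hg38 are named, per the submitters' processing notes, without a role. No aligner is given in the sources used here. The authors called domains per library and deposited, for each, the count of H3K9me3 and of input reads, a p-value and an adjusted p-value, the log2 enrichment over input and a score of 100 times that log2. Each list began just above a log2 of 0.6. Log2 values were compared within a list alone, and counts exist for listed domains alone, so no count model was run on them.

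Covered bases were computed with Python 3.11.15, numpy 2.4.6, pandas 2.3.3 and scipy 1.17.1, and figures with matplotlib 3.10.9. Genes and promoters came from RefSeq tables of GRCh38.p14, without exons. Coverage of 100 kb bins and gene bodies with a mean of at least 5% was tested genome-wide in R 4.3.3 (limma 3.58.1, clone as random effect). All functions were tested on simulated data, where limma made more false calls than its nominal rate. The domains and gene lists were chosen with earlier results of these data known. Named were the 8 longest regions, the 8 longest covered to at least 50% in all libraries, construct-specific regions, the genes with the highest coverage among those met by these domains in all 8 libraries, and up to 4 genes per list by mean coverage. Other features named (the 14 regions with a domain in every library, ZIK1, ONECUT3, HIF3A, the microRNA cluster) were chosen after their values were seen. Replicate numbers were not treated as pairs in the main tests, and whether they pair the libraries was not settled. The alternatives were stricter, equal-length or joined lists, other rules for zinc finger genes, other filters and blocks, and leaving out each library.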

Additional observations from a re-analysis of the deposited data

Results flagged for a closer look

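Among 26 checks (13 measures in each construct, of which chance flags about 1 in 20), 2 libraries lay far from the other 3 of their construct. The median length of domains outside zinc finger genes was 30 kb in LmnB1_6 replicate 2, against 8 to 10 kb in the other LmnB1 libraries. The length covered on the short-arm side was 0.754 Mb in mCherry_4 replicate 2, against 1.07 to 1.14 Mb in the other mCherry libraries.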

How the results depend on the processing

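Of the genes and bins tested outside zinc finger genes, 0 were called under the 18 alternatives run for each. No difference between constructs in the 5 measures passed the adjusted test, so their signs carry little. The difference in covered length turned positive with lists of equal covered length (0.123 Mb), joined domains (0.043 Mb), domains dropped only when at least 50% lay in zinc finger genes (1.33 Mb, exact permutation p = 0.6), zinc finger bodies cut out (0.983 Mb), the wider zinc finger list (0.0437 Mb) and mCherry_3 replicates averaged (0.169 Mb). The difference in number turned negative with equal covered length (-5) and with domains of at least 10 kb (-21), the share of the covered genome turned positive with equal covered length (0.0384 percentage points), and genes overlapped turned negative with domains of at least 10 kb (-9.25). Leaving out single libraries gave -0.676 to 0.356 Mb for covered length, -9.75 to 17.6 for number, -6.58 to 14.1 for genes overlapped, -8.5 to -0.0833 kb for median length and -0.214 to -0.0724 percentage points for the share.

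Against zinc finger domains, the log2 difference of -0.045 (exact sign-flip p = 0.25) lost the call with clones as units, where 4 units cannot pass. The length difference, a description without a test, was -23.4 kb with clones as units. Leaving out single libraries gave log2 differences of -0.053 to -0.035 and length differences of -26.4 to -20.3 kb. Regions covered in every library numbered 25 to 38 and LmnB1-only regions 1 to 3 without single libraries: leaving out mCherry_4 replicate 2 gave 38 of the first, LmnB1_6 replicate 2 gave 3 of the second, and mCherry_3 replicate 1 gave 2. The replicate block (labels permuted within a replicate number) gave exact p = 0.944 for covered length, and limma with a replicate block called 0 genes and 0 bins; correlations of replicate differences between clones were -0.0352 to 0.175. Depth relative to input differed between the constructs, and its part in these comparisons was not tested. A region under the authors' threshold is not listed.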

Other observations

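A run of microRNA genes on the long arm was covered in all libraries, in 7 of them to 79.7% or more. The densest run of hairpins on chromosome 19, 43 of 130, spans 95.8 kb (chr19:53666679-53762430) from MIR512-1 to MIR519A2. It is the primate-specific placental cluster known as C19MC, imprinted and silent in most adult tissues. Its covered percent was 83.9, 95.4, 98.5 and 79.7% in the LmnB1 libraries and 95.4, 100, 100 and 13.9% in the mCherry libraries, with 35, 40, 41 and 35, and 40, 43, 43 and 6 hairpins inside a domain. A domain free of ZNF and ZFP genes covered it in LmnB1_6 replicate 2 alone, and in the others the domain reached such a gene. Of the 87 hairpins elsewhere on the chromosome, 1 to 3 lay in a domain in each library.

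Some of the most enriched short domains recurred between constructs. The most enriched domains of LmnB1_6 replicate 1 and of both mCherry_4 libraries were not among the top 3 of another library. A 3 kb domain at chr19:43690001-43693000, without a coding gene, was the most enriched outside zinc finger genes in both LmnB1_16 replicate 1 (log2 2.56, 119 against 23 input reads) and mCherry_3 replicate 2 (2.00, 75 against 23 reads). A 2 kb domain in ONECUT3, a gene for a homeobox transcription factor, led in mCherry_3 replicate 1 (2.49, 83 against 18 reads). Domains in HIF3A, a hypoxia-inducible factor gene, led in LmnB1_16 replicate 2 (2.25, 187 against 39 reads) and came second in mCherry_3 replicate 1 (2.15, 175 against 48 reads). These genes were chosen for their rank within a list.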
